A study of Mus musculus with 10 samples.

Results

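Endothelial identity is held by a small set of transcription factors, and the data on 10 of them were examined in bEnd.3 cells, an immortalised mouse brain endothelial cell line, after degradation of cell-surface mucins. The 10 genes were chosen by name, with earlier results of these data known. They are the ETS factors *Fli1*, *Erg*, *Ets1*, *Ets2*, *Elk3* and *Etv6*, the SOXF factors *Sox7*, *Sox17* and *Sox18*, and *Gata2*. All 10 were found, each on 1 row, among the 27024 rows of the expression table that carry a gene name. StcE is a bacterial mucinase that cuts proteins bearing dense mucin-type O-glycans. The cells, of genotype WT, received 5 nM StcE (5 samples, replicates 1, 2, 3, 5 and 6) or saline (5 samples, replicates 1, 2, 3, 4 and 5). All were collected at 16 h. None of the 10 samples is labelled as given an inactive enzyme, and the line is a single immortalised line. Nothing in the labels says that replicates were separate cultures, so p-values measure the spread between these samples, which may be technical.

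ETS factors share a DNA-binding domain that reads a GGAA core, and most endothelial enhancers and promoters carry such sites. ERG and FLI1 keep endothelial genes on in adult vessels. SOXF factors bind DNA through an HMG box and act in arterial, venous and lymphatic specification, where they can stand in for each other in part. GATA2 is a zinc-finger factor of blood and endothelial cells that works in complexes with TAL1 and LMO2.

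The cells expressed the defining markers of endothelium. All 11 endothelial markers examined had a mean of at least 1 FPKM (the number of fragments on a gene, divided by its length in kilobases and by a depth scale of the sample), and their summed level was 2006.3 to 2160.5 FPKM in saline samples and 1960.9 to 2038.4 FPKM in StcE samples. Markers of other cell types were low in both groups. The sum over mural markers (7 of 8 in the table) was 2.19 to 5.37 FPKM with saline and 2.88 to 4.64 FPKM with StcE, that over fibroblast markers (5 of 6) 1.22 to 1.44 and 1.20 to 1.54 FPKM, that over neural markers (6 of 7) 0.102 to 0.237 and 0.128 to 0.272 FPKM, and that over blood and immune markers (6 of 8) 0 to 0.0509 and 0.0100 to 0.0830 FPKM. The 3 lymphatic markers in the table summed to 39.5 to 45.4 FPKM with saline and 37.9 to 41.9 FPKM with StcE. Most of the sum was *Flt4*, a VEGF receptor that blood endothelium also expresses. *Lyve1* had 12.2 ± 1.48 FPKM with saline and 11.4 ± 0.779 with StcE (SD, n = 5 each), and *Prox1* did not exceed 0.003 FPKM. Depth, recovered from the values as whole fragments, was 21922475 to 29017160 fragments per saline sample and 21864510 to 33147226 per StcE sample.

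After StcE, 6 of the 10 factors were lower past the threshold (limma, Benjamini-Hochberg adjusted p under 0.05 over all 11062 genes tested) and 0 were higher. They were *Fli1*, *Sox7*, *Elk3*, *Etv6*, *Sox18* and *Erg*, and their mean FPKM was 8.02% to 14.7% lower than with saline. Over all genes tested, 11.9% passed the threshold and 6.41% passed it as lower and 5.52% as higher (709 and 611 genes, or 518 and 272 when samples were scaled to 1 total FPKM). The median log2 fold change of the 10 factors was -0.15, against -6.6e-04 over all genes tested. *Ets2* just missed the threshold, and *Ets1*, *Gata2* and *Sox17* were further from it. General endothelial markers moved alongside, and their part in the result was not tested. Of the 11 endothelial markers, 4 were lower (*Pecam1*, *Tek*, *Tie1* and *Esam*) and 1 was higher (*Egfl7*) past the threshold, with a median log2 fold change of -0.079. This count of 5 was 2 without saline replicate 1, 2, 3 or 4 or StcE replicate 1, 3, 5 or 6, 3 without saline replicate 5, 2 with no filter on low FPKM or a minimum of 0.1, and 3 with eBayes without trend. The changes were small, and fold changes are on the log2(FPKM + 1) scale, which understates those of low genes. In these bulk samples, less RNA per cell and fewer cells expressing a gene cannot be told apart.

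**Figure D1:**
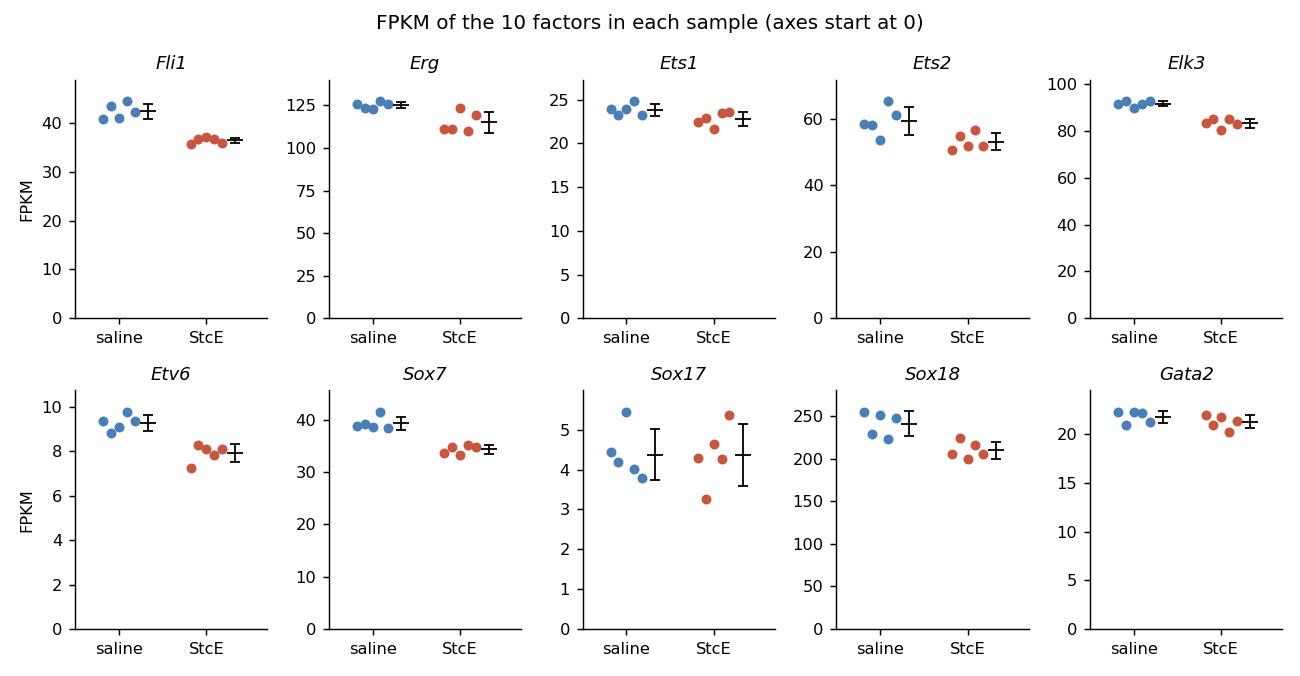
FPKM of each factor in each of the 5 saline and 5 StcE samples (points), with the mean and SD of each group (bar and whiskers). Axes start at 0 and differ between panels. In the panels of Fli1, Elk3, Etv6 and Sox7 every StcE sample lies below every saline sample, whereas the panel of Sox17 has both groups at 4.37 FPKM.

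*Fli1* encodes, with *Erg*, one of the 2 close ETS relatives most associated with endothelial identity. It was measured at 40.8, 43.6, 41.0, 44.5 and 42.3 FPKM in saline replicates 1 to 5 and at 35.8, 36.7, 37.2, 36.7 and 36.0 FPKM in StcE replicates 1, 2, 3, 5 and 6. The groups did not overlap, and the StcE samples lay closer together than the saline samples (SD 0.550 against 1.60, n = 5 each). The log2 fold change was -0.21 (95% interval -0.27 to -0.15, limma adjusted p = 5.3e-04), which corresponds to a mean FPKM that was 14.1% lower. It had the smallest adjusted p of the 10 factors, and it stayed past the threshold in all 22 alternative fits.

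*Erg* was the most highly expressed ETS gene of the 6. It had 125.7, 123.4, 123.0, 127.4 and 126.0 FPKM in saline replicates 1 to 5 and 111.4, 111.0, 123.6, 110.0 and 119.2 FPKM in StcE replicates 1, 2, 3, 5 and 6. The saline samples were tightly grouped, and StcE replicate 3 lay among them while the other 4 StcE samples were below all of them. A log2 fold change of -0.12 (95% interval -0.19 to -0.049, limma adjusted p = 0.0356) went with a mean that was 8.02% lower. This call was a weak one. The direction held in all 22 alternative fits but the threshold was passed in 6 of them, with adjusted p between 0.0102 without StcE replicate 3 and 0.151. It was lost on leaving out any 1 saline sample or StcE replicate 1, 2 or 5 (adjusted p up to 0.0808).

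The other ETS pair, *Ets1* and *Ets2*, encodes factors that are phosphorylated downstream of ERK signalling. *Ets2* ranged from 53.7 to 65.2 FPKM (median 58.5) in saline samples and from 50.6 to 56.6 FPKM (median 51.8) in StcE samples, with 3 of 5 StcE samples below the lowest saline sample. The log2 fold change was -0.16 (95% interval -0.26 to -0.051, limma adjusted p = 0.0569). The gene passed the threshold with voom on the recovered fragments (adjusted p = 0.0221), without saline replicate 3 (adjusted p = 0.0215) and without StcE replicate 5 (adjusted p = 0.0487). *Ets1* had a lower level and a smaller difference, from 23.2 to 24.8 FPKM with saline and from 21.7 to 23.6 FPKM with StcE, and its interval of -0.12 to 0.0047 on the log2 scale (limma adjusted p = 0.214) includes 0. It did not pass the threshold in any of the 22 alternatives.

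These 4 ETS genes lie in 2 head-to-head pairs in the mouse genome (GRCm38, positions from GENCODE vM21). On chromosome 9, *Fli1* runs on the minus strand from 32422204 to 32542861 and *Ets1* on the plus strand from 32636221 to 32757820, with 93.4 kb between them. *Erg* (minus strand, 95359169 to 95586593) and *Ets2* (plus strand, 95702075 to 95721051) stand in the same arrangement on chromosome 16, with 115.5 kb between them. The log2 fold changes were -0.21 (*Fli1*) and -0.058 (*Ets1*) in the first pair and -0.12 (*Erg*) and -0.16 (*Ets2*) in the second. *Erg* and *Ets2* had the same exact permutation p (0.0238) although *Erg* alone passed the threshold, and no difference within either pair was tested.

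*Elk3* and *Etv6* encode ETS factors known mainly as repressors. *Elk3* acts with serum response factor as a ternary complex factor, and *Etv6* carries a pointed domain through which it forms polymers. *Elk3* (chromosome 10, 93247414 to 93311135) was at 91.7, 92.7, 89.8, 91.7 and 92.7 FPKM in saline replicates 1 to 5 and at 83.4, 85.1, 80.3, 85.0 and 83.2 FPKM in StcE replicates 1, 2, 3, 5 and 6. No value overlapped, and the difference was several times the spread within either group (SD 1.19 and 1.93, n = 5 each). Its log2 fold change was -0.14 (95% interval -0.18 to -0.089, limma adjusted p = 0.00225), a mean 9.09% lower.

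*Etv6* (chromosome 6, 134035700 to 134270158) was low among the 10 factors, though at position 5429 of all 27024 rows by mean FPKM. It was at 9.35, 8.83, 9.12, 9.77 and 9.37 FPKM in saline replicates 1 to 5 and at 7.25, 8.30, 8.13, 7.83 and 8.12 FPKM in StcE replicates 1, 2, 3, 5 and 6. The groups were again separate, with StcE replicate 1 the lowest of all. The log2 fold change was -0.21 (95% interval -0.29 to -0.12, limma adjusted p = 0.00488), and the mean was 14.7% lower, the largest percentage among the 10. Exons of genes on the opposite strand overlap 6.95% of the exon length of *Elk3* (*Cdk17*) and 2.26% of that of *Etv6* (*Gm17089*). The libraries kept strand, but whether counting used it is not given in the sources used here.

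Among the SOXF genes, *Sox18*, which acts in vascular and lymphatic development, was by far the most highly expressed. Its FPKM ranged from 223.1 to 255.0 (median 248.1) in saline samples and was 205.3, 224.1, 199.4, 215.9 and 205.5 in StcE replicates 1, 2, 3, 5 and 6. The groups met at their edges, since StcE replicate 2 was above saline replicate 4, and the other samples were apart. Its log2 fold change was -0.20 (95% interval -0.30 to -0.11, limma adjusted p = 0.0135), a mean 13.1% lower. With no filter on low FPKM, when 27024 rows were tested, it narrowly missed the threshold (adjusted p = 0.0509).

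*Sox7*, an early endothelial SOXF factor, was measured at 38.9, 39.3, 38.7, 41.5 and 38.5 FPKM in saline replicates 1 to 5 and at 33.6, 34.9, 33.2, 35.3 and 34.8 FPKM in StcE replicates 1, 2, 3, 5 and 6. The StcE samples were all below the saline samples, with saline replicate 4 standing above the rest. Its log2 fold change was -0.19 (95% interval -0.25 to -0.13, limma adjusted p = 0.00114), and it stayed past the threshold in all 22 alternatives.

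*Sox17*, a factor of arterial identity and Wnt-dependent barrier formation in brain vessels, was the lowest of the 10. It had 4.44, 4.18, 5.44, 4.02 and 3.79 FPKM in saline replicates 1 to 5 and 4.28, 3.25, 4.64, 4.27 and 5.38 FPKM in StcE replicates 1, 2, 3, 5 and 6. The groups covered the same range and both means were 4.37 FPKM. The log2 fold change was -0.0064 with a 95% interval of -0.23 to 0.22 (limma adjusted p = 0.978), so that a decrease of the size seen in *Sox7* or *Sox18* lies within it. Between 429 and 768 fragments per sample lay behind these values, a counting error of 3.61% to 4.83%, whereas the samples of a group varied by 14.7% (saline) and 17.6% (StcE, coefficient of variation). A gene on the opposite strand, *Gm37587*, overlaps 16.8% of its exon length.

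*Gata2* also showed no difference beyond its spread. It ranged from 21.0 to 22.3 FPKM (median 22.2) with saline and from 20.3 to 22.0 FPKM (median 21.4) with StcE, and the groups overlapped. On the log2 scale the difference was -0.033 (95% interval -0.095 to 0.028, limma adjusted p = 0.485). That interval is narrow enough to leave out the estimates of the 6 factors that passed the threshold, although the difference between *Gata2* and those factors was not tested.

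**Figure D2:**
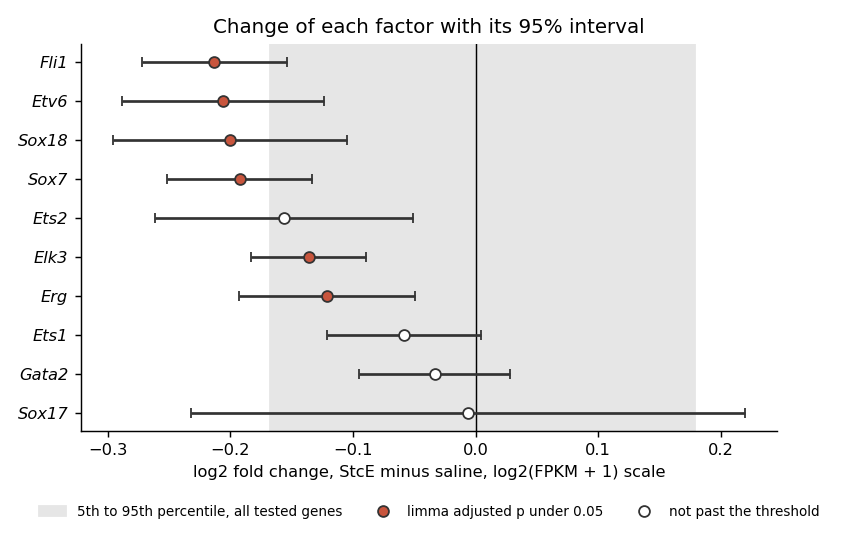
Log2 fold change of each factor (StcE minus saline, log2(FPKM + 1) scale) with its 95% interval from limma over 5 samples a group, filled where the adjusted p is under 0.05. The grey band is the range from the 5th (-0.17) to the 95th (0.18) percentile of all 11062 genes tested. Fli1, Etv6, Sox18 and Sox7 lie below the band and Sox17 has the widest interval.

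Tested one gene at a time, the 4 factors whose groups did not overlap reached the smallest p that 5 samples against 5 allow (exact two-sided permutation test, p = 0.00794 for *Fli1*, *Elk3*, *Etv6* and *Sox7*). Over all genes tested, 5.80% had all StcE samples below all saline samples. The exact permutation p was 0.0159 for *Sox18*, 0.0238 for *Erg* and for *Ets2*, 0.0714 for *Ets1*, 0.238 for *Gata2* and 0.968 for *Sox17*. With a pseudocount of 0.1 these p-values were the same.

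**Figure D3:**
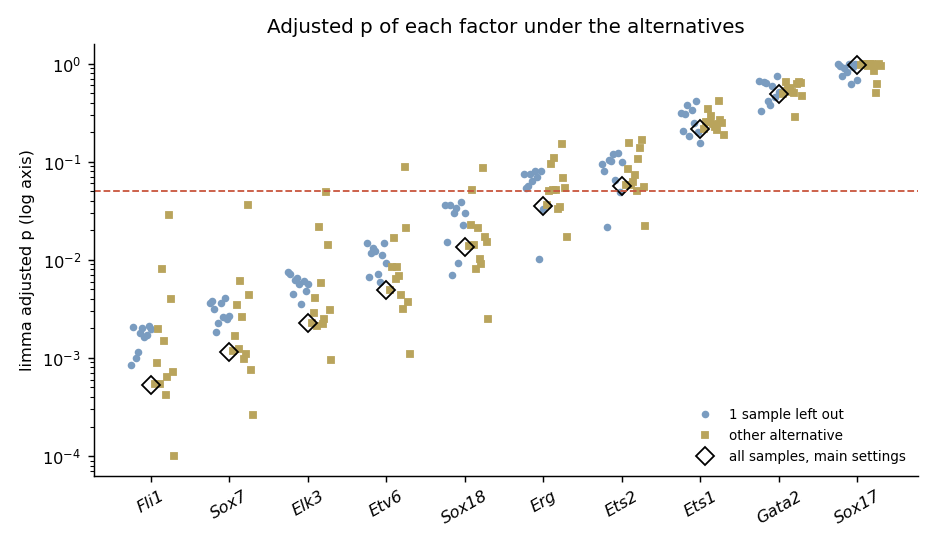
Limma adjusted p (log axis) of each factor with all samples and main settings (diamond), with 1 sample left out (10 circles) and under the 12 other alternatives (squares), and the threshold of 0.05 (dashed line). The values of Fli1, Sox7 and Elk3 all lie below the line, most of those of Erg lie above it, and those of Ets1, Gata2 and Sox17 all lie above it.

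FPKM is per length, so levels of the factors can be set side by side. With saline the order of mean FPKM was *Sox18* (241.6), *Erg* (125.1), *Elk3* (91.7), *Ets2* (59.3), *Fli1* (42.5), *Sox7* (39.4), *Ets1* (23.8), *Gata2* (21.8), *Etv6* (9.29) and *Sox17* (4.37). The order was the same with StcE. Neighbours in it had separate ranges except *Fli1* and *Sox7* with saline and *Ets1* and *Gata2* with StcE, whose ranges overlapped. In these pairs *Fli1* was above *Sox7* in 5 of 5 saline samples and the means of *Ets1* and *Gata2* with StcE were 22.8 ± 0.800 and 21.3 ± 0.664 FPKM (SD, n = 5 each), and neither difference was tested. Among all 27024 rows, ranked by mean FPKM over the 10 samples, *Sox18* stood at position 182, *Erg* at 386 and *Sox17* at 7684.

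The 6 ETS factors held most of the summed FPKM of the ETS family, 78.2% ± 0.160 (SD, n = 5) of the 22 family genes in the table with saline and 76.3% ± 0.257 (SD, n = 5) with StcE. *Erg* alone made up 27.8% ± 0.321 with saline and 27.5% ± 1.26 with StcE, and *Elk3* 20.4% ± 0.377 and 20.0% ± 0.613. The family sum itself was 436.4 to 464.6 FPKM in saline samples and 405.7 to 422.6 FPKM in StcE samples. Within the SOXF genes the composition hardly moved, since *Sox18* made up 84.6% ± 1.05 of their sum with saline and 84.4% ± 0.681 with StcE, while the sum went from 285.4 ± 13.6 to 248.7 ± 10.0 FPKM (SD, n = 5 each). *Gata2* made up 91.1% ± 0.567 of the summed FPKM of the 4 GATA genes in the table with saline and 91.0% ± 0.742 with StcE.

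Whether related factors changed by different amounts was examined through the ratio of 2 factors within each sample, which does not depend on how samples are scaled. Of 6 pairs, 0 showed a difference between groups past the threshold after adjustment over the pairs, and 1 had an unadjusted p under 0.05 (exact two-sided permutation test). That pair was *Fli1* over *Erg*, whose ratio was 0.325 to 0.354 in saline samples and 0.301 to 0.333 in StcE samples, a difference in mean log2 ratio of -0.096 (standard error 0.0387, exact permutation p = 0.0476, adjusted p = 0.175). *Ets1* over *Ets2* differed by 0.098 (standard error 0.0508, exact permutation p = 0.0873, adjusted p = 0.175) and *Elk3* over *Etv6* by 0.092 (standard error 0.0465, exact permutation p = 0.0873, adjusted p = 0.175). *Sox7* over *Sox18* was nearly level, at 0.153 to 0.186 with saline and 0.156 to 0.170 with StcE (difference 0.0036, standard error 0.0597, exact permutation p = 0.960). Both ratios with *Sox17* varied widely, and differed by -0.19 for *Sox7* over *Sox17* (standard error 0.157, exact permutation p = 0.262) and by 0.19 for *Sox17* over *Sox18* (standard error 0.164, exact permutation p = 0.278). A different response of *Sox17* from that of *Sox7* or *Sox18* was therefore not shown at this spread.

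**Figure D4:**
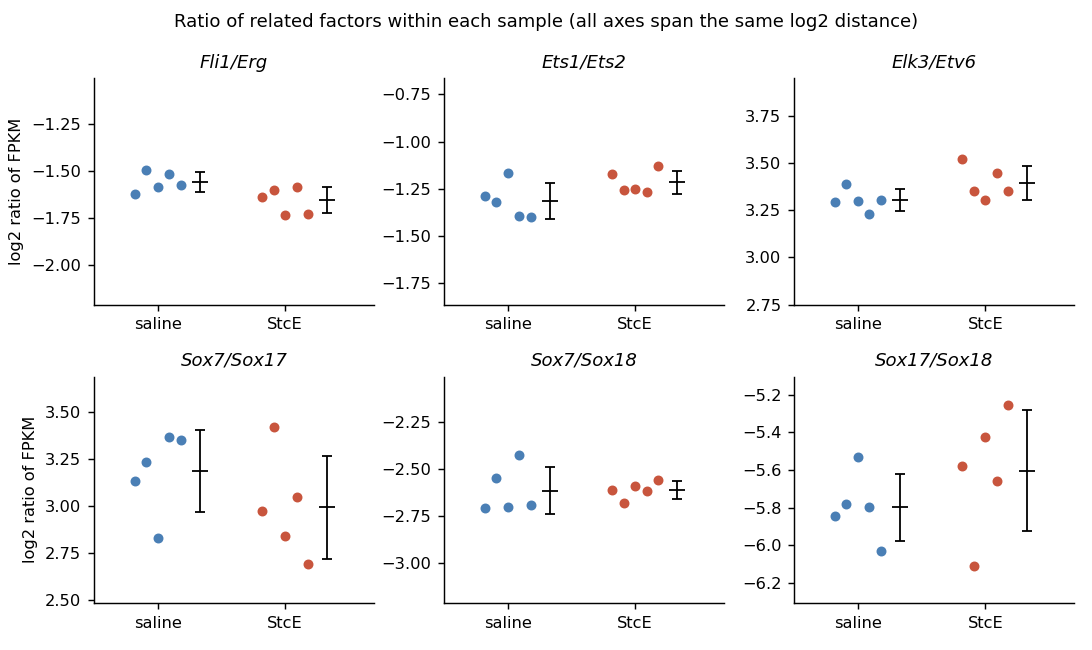
Log2 ratio of the FPKM of related factors in each saline and StcE sample (points), with the mean and SD of each group. Every axis spans the same log2 distance. The groups overlap in all 6 panels, and the ratios with Sox17 scatter most.

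The remaining members of the same families were examined as lists. Of 20 other ETS genes, 16 were in the table and 10 reached the FPKM minimum of 1 needed for testing. *Etv4*, an ETS factor induced by FGF and ERK signalling, was the single one of these 10 past the threshold, and it rose from 10.5 ± 1.03 to 13.0 ± 0.835 FPKM (SD, n = 5 each, log2 fold change 0.28, limma adjusted p = 0.0133). Its StcE samples, at 12.1 to 14.1 FPKM, were all above its saline samples, at 9.14 to 11.6 FPKM. *Erf*, an ETS repressor and the most highly expressed gene of this list not past the threshold, had 24.8 ± 0.449 FPKM with saline and 23.5 ± 0.824 with StcE (SD, n = 5 each, limma adjusted p = 0.102). The median log2 fold change of the 10 tested ETS genes was 0.0041.

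Of the other SOX genes, 2 of 16 were tested. *Sox13*, of the SOXD group, was lower, with 24.6 ± 0.972 and 22.6 ± 0.619 FPKM (SD, n = 5 each, log2 fold change -0.12, limma adjusted p = 0.0293), and its groups did not overlap. This call was lost without saline replicate 1, 3 or 4, without StcE replicate 1, 3 or 5, and with no filter on low FPKM. *Sox4* had 26.4 ± 2.64 and 29.1 ± 1.24 FPKM (SD, n = 5 each, limma adjusted p = 0.156). Of the other GATA factors and their FOG cofactors, which bind GATA zinc fingers, 3 of 7 were tested and 0 passed the threshold by limma, with 0 at an unadjusted p under 0.05 and 0 with voom on the recovered fragments. *Zfpm1*, which encodes the cofactor FOG1, had 16.9 ± 0.788 and 16.4 ± 0.697 FPKM (SD, n = 5 each, limma adjusted p = 0.552).

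Among 32 other transcription factors of endothelial identity or state, 21 were tested, 5 were lower and 2 higher past the threshold. The lower ones with the smallest adjusted p were *Hes1*, a repressor induced by Notch (16.0 ± 0.970 to 12.6 ± 0.451 FPKM, log2 fold change -0.32, limma adjusted p = 4.6e-04), *Hhex*, a homeobox factor (29.6 ± 1.18 to 25.6 ± 0.851 FPKM, log2 fold change -0.20, limma adjusted p = 0.00229), and *Epas1*, a hypoxia-inducible factor subunit (61.8 ± 4.08 to 47.8 ± 3.88 FPKM, log2 fold change -0.36, limma adjusted p = 0.00246), with SD over n = 5 each. *Hey1* and *Lmo2* were the other lower ones, and *Klf2* and *Rbpj* were higher. *Id1*, the most highly expressed gene of this list not past the threshold, had 96.3 ± 10.2 and 97.3 ± 3.74 FPKM. The median log2 fold change of the 21 genes was -0.046. *Tal1*, which encodes a partner of GATA2, was not past the threshold.

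Genes described as targets of these factors were counted in the same way. Of 24 tested endothelial genes bound by ETS factors, 8 were lower and 2 higher past the threshold, with a median log2 fold change of -0.074. Of all 11062 genes tested, 6.41% were lower and 5.52% higher past it. The list is not separate from the endothelial markers above. All 5 markers past the threshold (*Pecam1*, *Tek*, *Tie1*, *Esam* and *Egfl7*) are among its 10 genes past it. The smallest adjusted p belonged to a gene that rose, *Procr*, the endothelial protein C receptor (783.6 ± 15.8 to 906.4 ± 36.5 FPKM, log2 fold change 0.21, limma adjusted p = 0.00124). *Tie1*, an endothelial receptor kinase (134.8 ± 5.15 to 119.0 ± 2.99 FPKM, log2 fold change -0.18, limma adjusted p = 0.00295), and *Flt1*, a VEGF receptor (18.7 ± 0.636 to 15.9 ± 1.13 FPKM, log2 fold change -0.23, limma adjusted p = 0.00775), fell. *Cdh5*, the VE-cadherin gene, was the most highly expressed of the list not past the threshold. It had 509.1 ± 25.9 FPKM with saline and 462.7 ± 22.3 with StcE (SD, n = 5 each). Its groups did not overlap but its adjusted p, 0.0515 by limma, missed the threshold at a log2 fold change of -0.14. Without saline replicate 1 or 3, or StcE replicate 3, 6 genes of the list passed the threshold in place of 10, and 4 passed with no filter on low FPKM.

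Of 10 tested genes described as SOXF targets, 4 were lower and 0 higher past the threshold (median log2 fold change -0.13), namely *Vcam1*, *Hey1*, *Flt1* and *Dll4*. *Vcam1*, a leukocyte adhesion molecule, fell from 6.67 ± 0.674 to 4.78 ± 0.455 FPKM (log2 fold change -0.41, limma adjusted p = 0.00287), and *Hey1*, a Notch-induced repressor, from 1.55 ± 0.110 to 0.980 ± 0.160 FPKM (log2 fold change -0.37, limma adjusted p = 0.00304). *Hey1*, also counted among the other transcription factors, lay near the FPKM minimum of 1. Its StcE mean was below that minimum, which its mean over all samples reached through the saline samples. Of 11 genes described as GATA2 targets, 3 were lower and 0 higher (median log2 fold change -0.10). They were *Lmo2*, an adaptor protein that bridges TAL1 and GATA factors (14.0 ± 1.51 to 11.5 ± 0.465 FPKM, limma adjusted p = 0.0231), *Pecam1*, an endothelial adhesion molecule (301.9 ± 10.4 to 279.2 ± 10.5 FPKM, limma adjusted p = 0.0425), and *Edn1*, the endothelin precursor (54.2 ± 7.32 to 43.7 ± 3.85 FPKM, limma adjusted p = 0.0483). These GATA2 counts were unstable, being 0 without saline replicate 1 or 3 or with no filter on low FPKM, and 1 with scaling by the upper quartile, an FPKM minimum of 0.1 or eBayes without trend, or without saline replicate 2 or StcE replicate 1, 5 or 6. *Nos3*, the endothelial nitric oxide synthase, was the most highly expressed GATA2 target not past the threshold, at 287.4 ± 13.5 and 307.8 ± 6.0 FPKM. The 3 lists share genes, and in all 33 distinct genes were tested, of which 12 were lower, 2 higher and 19 not past the threshold.

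**Figure D5:**
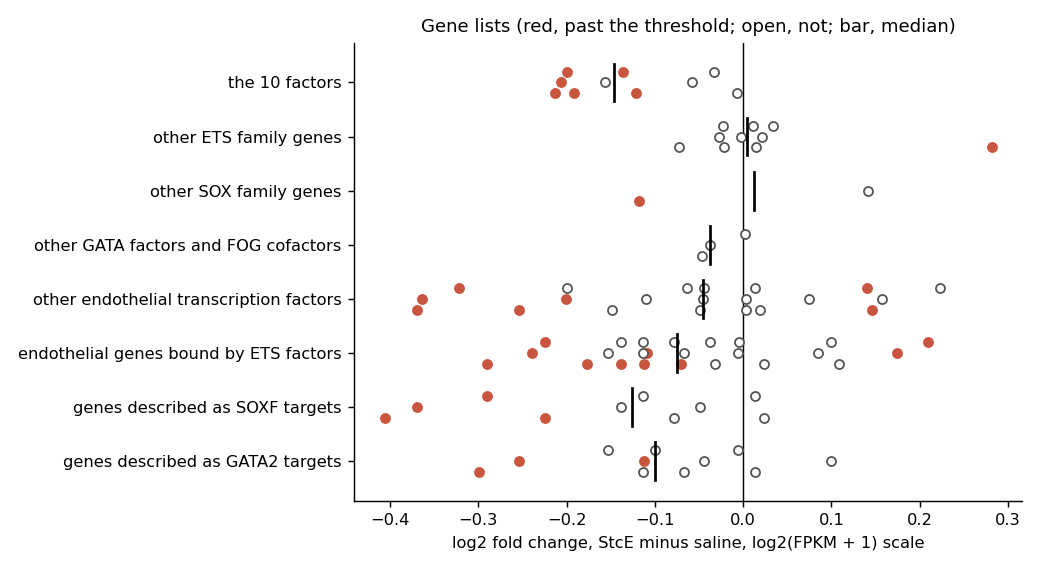
Log2 fold change (StcE minus saline, log2(FPKM + 1) scale) of the tested genes of each list, red where the limma adjusted p is under 0.05 and open where not, with the median of the list as a vertical bar. A gene may stand in more than 1 list. The 10 factors have no point above 0, and the other ETS genes centre on 0 with Etv4 at 0.28.

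Promoter sequences from RefSeq (build GRCm38.p6) were found for 5 of the 10 factors, over 8 transcription starts. The 250 bases before each start were searched on both strands for ETS letters (CCGGAA or AGGAAG, which 38.2% of 32851 mouse promoters hold), SOX letters (ACAAAG or ACAATG, 25.2%) and GATA letters (AGATAA, 9.99%). CCGGAA and AGGAAG have different bases before the GGAA core, so that a core on 1 strand counts once. A GGAA core with other bases around it was not counted, and such cores occur in the windows of *Etv6* and *Gata2* below. Matches were found in 2 of the 8 windows. An *Erg* window at a start inside its own gene (chr16:95459349-95459598, minus strand, intronic) held 1 of each kind. The other *Erg* windows held none, both that directly before the annotated gene (chr16:95586594-95586843) and that at another start inside it (chr16:95530366-95530615). The window of *Elk3* (chr10:93311160-93311409, minus strand, outside annotated genes) held 1 ETS match. The 2 windows with matches are shown with windows of *Etv6* (chr6:134035450-134035699, plus strand), another factor that fell, and *Gata2* (chr6:88193641-88193890, plus strand), a factor not past the threshold. None of the searched letters occur in these windows of *Etv6* and *Gata2*. Sequences read 5′ to 3′ on the strand of the gene and capitals mark the matches.
Erg: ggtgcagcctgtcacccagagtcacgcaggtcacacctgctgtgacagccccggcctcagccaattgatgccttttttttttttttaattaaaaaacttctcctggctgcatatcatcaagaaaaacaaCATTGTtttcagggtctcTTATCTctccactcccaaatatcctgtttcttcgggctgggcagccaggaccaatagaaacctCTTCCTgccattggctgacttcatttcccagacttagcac
Elk3: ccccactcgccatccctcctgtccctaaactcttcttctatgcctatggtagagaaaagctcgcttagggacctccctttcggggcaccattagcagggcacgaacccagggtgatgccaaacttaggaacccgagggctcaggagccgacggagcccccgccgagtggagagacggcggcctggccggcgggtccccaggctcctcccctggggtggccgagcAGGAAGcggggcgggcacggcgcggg
Etv6: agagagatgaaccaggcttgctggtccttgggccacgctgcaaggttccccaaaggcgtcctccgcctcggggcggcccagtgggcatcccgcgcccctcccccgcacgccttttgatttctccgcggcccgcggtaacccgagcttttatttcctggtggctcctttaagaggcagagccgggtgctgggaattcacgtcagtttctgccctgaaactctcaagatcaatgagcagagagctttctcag
Gata2: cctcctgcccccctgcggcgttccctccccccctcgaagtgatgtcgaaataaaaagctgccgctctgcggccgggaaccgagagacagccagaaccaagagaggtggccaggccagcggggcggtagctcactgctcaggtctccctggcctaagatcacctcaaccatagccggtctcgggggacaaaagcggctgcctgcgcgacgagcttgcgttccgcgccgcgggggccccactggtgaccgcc
In the intronic *Erg* window the matches lie on the opposite strand and begin 121 (ACAATG), 103 (AGATAA) and 40 (AGGAAG) bases before the start. The ETS match of *Elk3* lies on the strand of the gene, 26 bases before its start. The table of FPKM sums over the starts of a gene, so which start the fragments of *Erg* came from cannot be told apart.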

How the data were processed

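Bulk RNA-seq of 10 bEnd.3 samples was used. The authors trimmed paired-end reads from strand-specific poly-A libraries, aligned them to GRCm38 and deposited FPKM with 1 column per sample (27024 rows with a gene name, a further 22874 empty). The submitters' processing notes name HISAT2 2.0.5, featureCounts 1.5.0-p3 and DESeq2 1.32.0, and the annotation release is not given in the sources used here. With GENCODE vM21 exon lengths, 96.4% of values above 0 were whole fragments (within 0.02), which gave the depth. Pairs of replicates within a group differed beyond counting error (chi-square per degree of freedom 3.24 to 9.13). The errors given for fragment counts are counting errors only and leave out this further spread.

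Genes with a mean of at least 1 FPKM (11062) were compared on the log2(FPKM + 1) scale. R 4.3.3 and limma 3.58.1 were used (lmFit, then eBayes with its trend option, condition as the sole term, Benjamini-Hochberg over all genes). DESeq2, the authors' tool, was not run, and the fragments recovered from FPKM were fitted with voom as an alternative. Single genes and ratios were tested by exact permutation. The script was tested on simulated data. Lists were described by counts and medians. Named genes are the 10 factors, up to 3 past the threshold with the smallest adjusted p in each list, and the most highly expressed of each list not past it. *Hey1*, *Lmo2*, *Klf2*, *Rbpj*, *Dll4*, *Tal1*, *Tek*, *Esam*, *Egfl7*, *Lyve1* and *Prox1* were also named after their values were seen. The factors and lists were chosen with earlier results of these data known. BLAST of the transcripts of the 10 factors found no copy of at least 95% identity over 150 bases other than the overlapping genes named. Such matches covered up to 42.7% of a transcript of *Elk3* (*Cdk17*) and up to 24.8% of a transcript of *Sox17* (*Gm37587*).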

Additional observations from a re-analysis of the deposited data

Results flagged for a closer look

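Of 68 groups of 5 samples examined for named genes, 20 were for the 10 factors. In 3 of the 68, the gap of a sample to the nearest other sample was large against the range of the group (Dixon's 95% critical value). Chance gives about 3.4 of 68. In saline replicate 4, *Sox7* had 41.5 FPKM and the other saline samples had 38.5 to 39.3. Without that sample the log2 fold change of *Sox7* was -0.17 (limma adjusted p = 0.00182). In StcE replicate 1, *Sox13* had 21.5 FPKM where the other StcE samples had 22.8 to 23.1. In saline replicate 5, *Tie1* had 125.9 FPKM and the rest of the saline group 135.4 to 139.0. What set these samples apart was not tested.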

How the results depend on the processing

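Scaling by total fragments was chosen after seeing the data and the other alternatives before the deposited values were opened in this work. Every factor but *Sox17* was lower after StcE in all 22 alternatives, and *Fli1*, *Sox7* and *Elk3* stayed past the threshold in all of them. *Sox17* turned to 0.0014 with scaling by total fragments, 0.061 without saline replicate 3 and 0.074 without StcE replicate 2, and ranged from -0.072 to 0.074 with a sample left out. The number of factors past the threshold was 5 to 6 with a sample left out and 4 with no filter on low FPKM. Over all genes the count was 1320 (709 lower, 611 higher), 793 to 1255 with a sample left out (409 to 667 lower, 384 to 588 higher), 801 with no filter (409 lower, 392 higher, 27024 rows tested) and 790 with scaling to 1 total FPKM (272 higher). In the lists, no filter gave 0 other SOX genes, 4 other endothelial transcription factors, 4 genes bound by ETS factors and 0 GATA2 targets. Leaving out a sample gave 0 to 1 other SOX genes, 6 to 11 genes bound by ETS factors, 0 to 4 GATA2 targets, 5 to 8 other endothelial transcription factors and 4 to 5 SOXF targets. The GATA2 count was 1 with an FPKM minimum of 0.1, with upper quartile scaling and without trend. Of the ratios, *Ets1* over *Ets2* ranged from 0.077 to 0.14 with a sample left out and passed the threshold without saline replicate 3 (adjusted p = 0.0476), and *Sox7* over *Sox18* ranged from -0.021 to 0.051, below 0 in 5 of these fits.

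Replicate numbers gave no pairing, since the deviations of same-numbered samples correlated at -0.097 to 0.054. A replicate block over the 8 samples with shared numbers was fitted, and 349 genes (162 lower, 187 higher) and 3 factors passed the threshold, against 885 (452 lower) and 5 for the same 8 samples without the block. *Etv6* (limma adjusted p = 0.0881), *Sox18* (0.0861) and *Erg* (0.151) lost it. *Erg* was also not past the threshold in the same 8 samples without the block (limma adjusted p = 0.0683). The blocked counts were 0 other SOX genes, 2 other endothelial transcription factors, 1 gene bound by ETS factors, 1 SOXF target, 1 GATA2 target and 0 endothelial markers (2 without the block), and without the block the other SOX count was also 0. *Sox17* had 429 to 768 fragments per sample, and its counting error (3.61% to 4.83%) was below the spread between samples (14.7% and 17.6%). The cause of these changes was not tested. Without a filter more rows were tested, and leaving out a sample used fewer samples. Fitting the block used fewer samples and also added terms for the replicate numbers to the fit.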
